A study of Mus musculus with 25 samples.

Results

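In GeoMx spatial profiles of the murine lung, 32 of 20175 probes were abundant enough and had a share of the counts that was higher by a set margin in the non-immune than in the CD68 segments, in healthy, peri-injured and injured regions alike. Further probes were higher by less than this margin and are not members. They were chosen from the counts. The counts of each segment type were pooled by region class, and the level of a probe was taken as the log2 of its CPM plus 20, where CPM is the count scaled to a pool total of 1000000. A probe was a member when it had 300 or more counts over all non-immune segments and when its level was higher by 0.7 or more in the non-immune pool of every class. The rule allowed for at most 100 probes, and 32 of the 2319 probes with enough counts met it. The difference between the segment types is therefore what chose these probes, and it is given below as a description with no test.

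Lung sections of 2 male mice of the SP-CI73T mutant line were used, kept in a germ-free facility per the labels and under pathogen-free housing per the methods of the study. The controls thus carried the mutant allele as well, and differed by the induction, in which oral tamoxifen leads to removal of a neomycin cassette and raises expression of mutant surfactant protein C. The sample labels give a single gavage of 175 mg/kg in corn oil, whereas the methods of the study describe another dose and schedule, and which of them these mice received is not settled here. From each of 12 regions, chosen on histology, barcodes were collected from a CD68 segment (CD45+CD68+ macrophages, labelled immune) and from a non-immune segment (DNA+CD45-). Healthy regions 1, 3 and 13 came from the control mouse at day 0, and peri-injured regions 6, 9, 10 and 12 and injured regions 4, 5, 7, 8 and 11 from the mouse 14 days after induction. Regions of the same class are thus parts of the same lung. P-values over regions describe these sections only and would be too small if read as a test over animals. Each comparison with healthy regions is also one between the 2 mice. The study's segment annotation gives region 4 the tissue number of the control lung and the treatment of the injured lung. It was kept as injured, as its label says, and counts without it are given below.

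Surfactant protein C is made by alveolar type II cells, the epithelial cells that secrete surfactant and renew the alveolar lining. The non-immune compartment of the alveolar region holds these cells together with the thin type I epithelium, capillary endothelium, fibroblasts and smooth muscle, while CD68 is a lysosomal protein by which macrophages are stained in tissue. A CD45- gate leaves these structural cells together, so that a probe of this segment cannot be ascribed to any of them from the segment alone. The count files give each probe a barcode identifier, and its gene and sequence are not known from the sources at hand, so that neither the members nor the labelled compartments could be checked against marker genes. Counts were taken over whole segments. Fewer cells that carry a transcript and less transcript per cell thus cannot be told apart in any value below.

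Non-immune segments held 80259 to 671249 counts (median 323959, n = 12) and CD68 segments 21955 to 119493 (median 72917.5, n = 12). Background, estimated from the 2018 least abundant probes, made up 30.4% to 34.1% of the counts of peri-injured non-immune segments, 36.5% to 47.5% of healthy ones and 37.8% to 40.8% of injured ones. It was likewise lower in peri-injured (27.4% to 34.7%) than in injured CD68 segments (37.0% to 40.4%). None of the members was under 2 times the background level in the non-immune pool of any class. In the CD68 pools, 2 members were under this level in healthy regions and 5 in injured regions, and none in peri-injured regions.

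The smallest of the 3 class differences, on which the members were ranked, was between 0.70 and 1.90 on the log2 scale (median 0.81, n = 32), compared with a median of -0.16 over the 2319 probes. The last members inside the limit were RTS0074211 (0.719) and RTS0068682 (0.705), and the first outside were RTS0072255 (0.696) and RTS0076045 (0.694). The members held 359 to 16504 non-immune counts each (median 867) and 26 to 1122 CD68 counts (median 63). Counting error alone gave a difference a standard error of 0.07 to 0.47 in healthy regions (median 0.37), where the CD68 pool of a member could be as low as 3 counts. It was smaller in peri-injured (median 0.25) and injured regions (median 0.23).

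By the smallest of the 3 class differences, RTS0068460 and RTS0068462 ranked highest. RTS0068460 was at 1977 CPM in the healthy non-immune pool and 155 CPM in the healthy CD68 pool. Its level was 2251 and 588 CPM in the pools of peri-injured regions, and 1057 and 208 CPM in those of injured ones, so that its log2 difference was 3.51, 1.90 and 2.24 in the 3 classes, in this order. For RTS0068462 the differences were 2.82, 1.94 and 1.81. Within single classes other members could be higher. The highest difference was that of RTS0069797 in peri-injured regions (1.95) and that of RTS0076370 in injured regions (2.42). Most members were far closer to the limit. Over all 32, the median difference was 0.96 in healthy, 1.31 in peri-injured and 0.91 in injured regions, compared with 0.02, 0.13 and 0.14 for the 2319 probes. Peri-injured regions held the highest difference of 20 members, healthy regions of 9 and injured regions of 3. Of the 2319 probes, 39.2% had their highest difference in peri-injured, 26.9% in healthy and 33.9% in injured regions.

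The class pools hide how the single regions behaved. When the segments of each region were set side by side, 20 members were higher in the non-immune segment in all 12 regions, 9 in 11, 2 in 10 and 1 in 9. The number of members higher in the non-immune segment was 32 of 32 in regions 3, 5, 6, 10 and 11, and was lowest in peri-injured region 12, with 28 of 32. Of the 2319 probes, 50.5% (region 3) to 66.8% (region 5) were higher there, with 55.5% in region 12. The counts of these regions also chose the members, so that most of this agreement was set by the choice. The median difference over the members was highest in peri-injured region 10 (1.71) and lowest in injured region 8 (0.57). In the same regions, the median over the 2319 probes was 0.17 and 0.11.

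**Figure D1:**
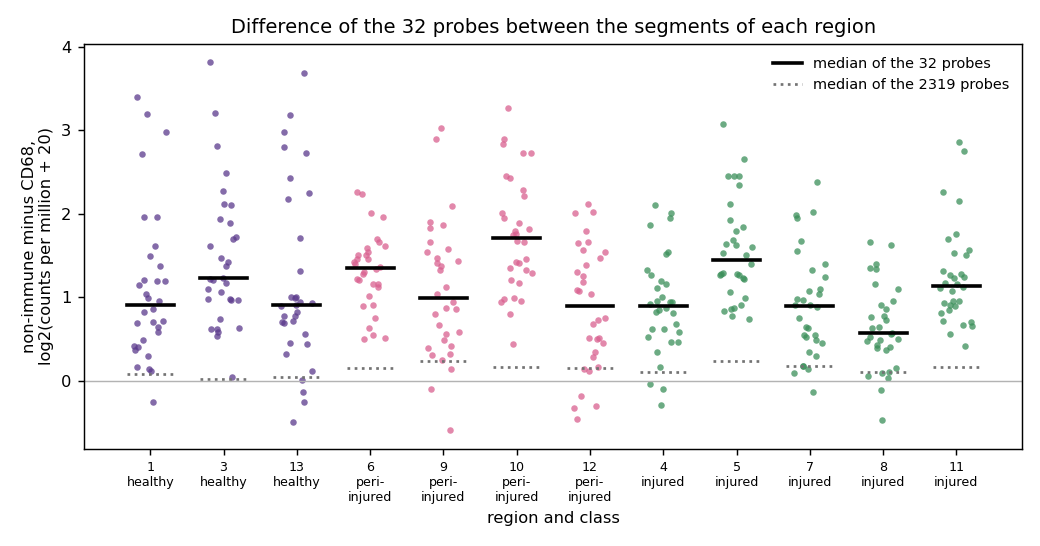
Difference between the non-immune and the CD68 segment of each of the 12 regions, in log2(CPM + 20), for each of the 32 members (points), with their median (black line) and the median of the 2319 probes (dotted line). All region medians of the members lie between 0.57 (region 8) and 1.71 (region 10), and single points fall below 0 in 7 of the 12 regions.

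The member that went against the label most often was RTS0064450, named here after its values were seen, which was lower in the non-immune segment in regions 9, 12 and 13, by 0.59, 0.30 and 0.13. The 2 leading members had 1 exception each, and it was the same region. In peri-injured region 12, RTS0068460 was 0.46 and RTS0068462 0.19 lower in the non-immune segment, while in the other 11 regions their differences were 1.66 to 3.81 and 0.80 to 3.26. RTS0068460 had its highest CD68 level of all regions there.

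To describe regions that had no part in the choice, the members were chosen again with each region left out in turn. Between 24 (without region 5) and 43 probes (without region 1) met the rule, and between 21 (without region 3) and 32 of them were among the 32. In the region left out, at least 76.3% (region 13) of the probes chosen without it were higher in the non-immune segment, and in regions 6, 10 and 11 it was all of them. Their median difference there was 0.41 in region 1, the lowest, and 1.71 in region 10, the highest. Of the probes with enough counts, 49.5% (region 3) to 68.7% (region 5) were higher in the non-immune segment of the region left out.

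Together the 32 members held 0.594% to 2.22% of the counts of a non-immune segment and 0.274% to 1.11% of those of a CD68 segment. In the non-immune segments, the share was 1.90%, 1.88% and 2.04% in healthy regions 1, 3 and 13. It was 2.22%, 1.32%, 1.40% and 1.38% in peri-injured regions 6, 9, 10 and 12. In injured regions 4, 5, 7, 8 and 11 it was 0.684%, 1.71%, 1.20%, 0.594% and 1.45%. The 3 healthy segments lay above all injured ones, whereas peri-injured and injured segments overlapped. Of these non-immune counts, 50.8% belonged to the 3 most abundant members, RTS0076370, RTS0076369 and RTS0068460 (16504, 7767 and 7073 counts), so that the sum says little of the others.

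**Figure D2:**
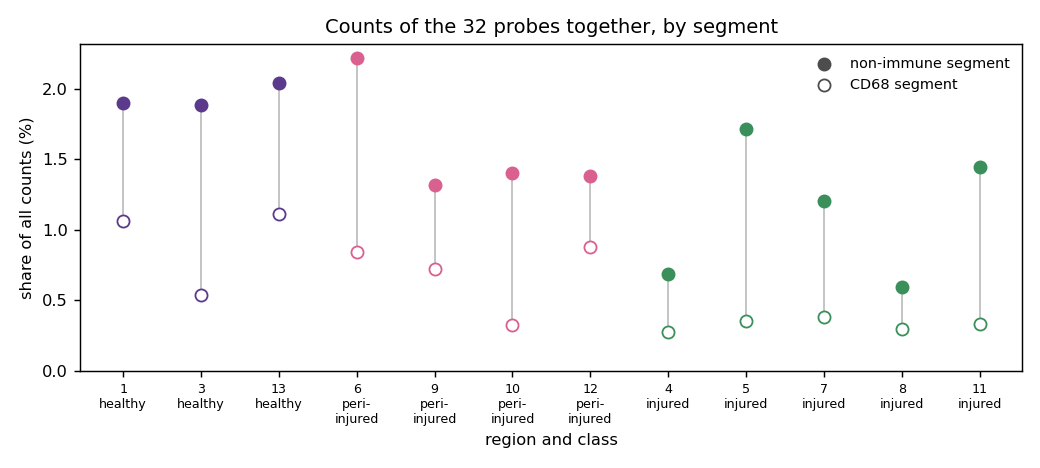
Share of all counts of a segment, in percent, held by the 32 members together, for the non-immune (filled) and the CD68 segment (open) of each region. The non-immune point lies above the CD68 point in all 12 regions, and regions 4 and 8 have the lowest non-immune shares (0.684% and 0.594%).

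The classes were then compared within the non-immune segments. The rule did not use this contrast, but the non-immune level of each class entered the differences that chose the members. The smallest difference was in healthy regions for 12 members, in peri-injured regions for 7 and in injured regions for 13. A high non-immune level in that class helped a member to pass, and its part in the comparisons below was not tested. All 32 members were among the 6000 probes tested, by the quasi-likelihood test of edgeR, with p-values adjusted over the 6000 after Benjamini and Hochberg. Calls were made at an adjusted p of 0.05 or less. Peri-injured and injured regions lie in the same lung if the label of region 4 holds. Between these classes, 18 of 32 members were called higher in peri-injured regions and 1 was called lower. Over the 6000 probes, 10.6% were called higher and 15.8% lower. Among the 2319 probes with enough counts to be members, in a fit of their own, 14.4% were called higher and 28.8% lower, and of the members 15 and 1, with a median log2 fold change of 0.49 compared with -0.15 for the 2319. In the fit of the 6000 probes the members' median was 0.74, compared with -0.17 for all probes tested. For 11 members the normalized counts of the 4 peri-injured segments were all above those of the 5 injured ones, and for none were they all below. Of all probes tested, 7.03% lay apart upwards and 10.7% downwards.

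The direction of the whole panel depended on the scaling and on the test here. Of the probes called in this comparison by edgeR, 634 were higher and 951 lower in peri-injured regions with upper-quartile factors. With TMM factors these were 868 and 413. DESeq2, with its own size factors and test, gave 695 and 282, and limma with upper-quartile factors gave 417 and 394. For the members the split was 18 and 1, 22 and 0, 21 and 0, and 15 and 0, in the same order. Taken relative to the median of all probes tested, the members' median was 0.91, 0.90, 0.91 and 0.87 in these fits. The estimated background was lower in all peri-injured than in all injured non-immune segments. With the background of each segment taken off its shares, an alternative chosen after seeing the data, the median difference of the members' log2 levels was 0.85, compared with 0.84 before. Here and below this was computed for the members only. The part of the background in their difference from the other probes was not tested. Without region 4, 14 members were called higher and 1 lower.

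RTS0068988 had the highest fold change of this comparison. Its normalized counts were 287, 220, 350 and 264 in peri-injured regions 6, 9, 10 and 12. In injured regions 4, 5, 7, 8 and 11 they were 40.3, 137, 60.7, 31.3 and 84.2. The groups did not overlap, and the nearest injured region was region 5. This gave a log2 fold change of 1.99 ± 0.29 (SE), with an adjusted p of 0.000101 by edgeR's quasi-likelihood test over regions of a single mouse. By a two-sided exact permutation test p was 0.0159, the smallest that 4 against 5 regions can give. Probes were named for a comparison only where the groups did not overlap. This sets the exact p at its smallest value, so that it adds no support to the call. It was called with each of the 12 regions left out.

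RTS0077263 followed the same order. It was at 305, 247, 371 and 288 in peri-injured regions 6, 9, 10 and 12. Injured regions 4, 5, 7, 8 and 11 had 73.6, 229, 112, 64.9 and 130. Region 5 was the injured segment nearest to the peri-injured ones, and the groups did not overlap. Its log2 fold change was 1.31 ± 0.29 (SE), with an adjusted p of 0.00283 by edgeR and an exact permutation p of 0.0159. The member called lower in peri-injured regions, named here because it was the only one, was RTS0070168, with a log2 fold change of -0.60 ± 0.20 (SE) and overlapping groups (adjusted p = 0.0333 by edgeR). No member was called lower with TMM factors, by DESeq2 or limma, with 10000 probes, without a filter or on thinning. Nor was any without region 5, 7, 9, 10, 11 or 12.

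**Figure D3:**
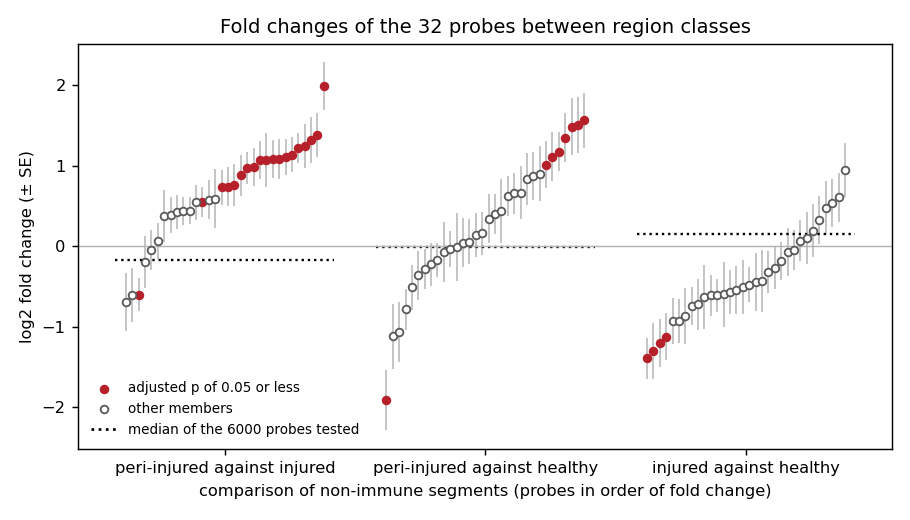
Log2 fold changes (± SE of the fit) of the 32 members in the 3 comparisons of non-immune segments, in order of size within each comparison, with called members filled and the median of the 6000 probes tested as a dotted line. In the comparison of peri-injured with injured regions 27 members lie above 0, and in that of injured with healthy regions 24 lie below 0.

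Against healthy regions, and thus also between the 2 mice, the peri-injured non-immune segments were compared next. By edgeR's quasi-likelihood test, 7 of 32 were called higher and 1 lower, while 2.68% of the 6000 probes were called higher and 1.83% lower. The median log2 fold change was 0.25, compared with -0.0035 for all probes tested. This median depended on the probes fitted and on the background. In the fit of the 2319 probes alone it was 0.014 (-0.08 for all of them), with 6 members called higher and 4 lower. With the estimated background taken off, the median difference of the members' log2 levels was 0.13, compared with 0.25 before. The normalized counts lay apart for 10 members upwards and for 3 downwards (9.93% and 6.08% of all probes tested). The count of calls depended on the healthy regions. It was 2 in all without region 1, 5 without region 3 and 4 without region 13. RTS0068985 had the highest fold change, with normalized counts of 112, 81.8, 108 and 87.2 in peri-injured regions 6, 9, 10 and 12, compared with 30.5, 25.0 and 51.8 in healthy regions 1, 3 and 13. Peri-injured regions were higher throughout, with a log2 fold change of 1.56 ± 0.34 (SE). The adjusted p was 0.00717 by edgeR over regions of 1 mouse per class, and was above 0.05 without region 1 (0.0635) and without region 3 (0.0860). The exact permutation p was 0.0571, the smallest that 3 against 4 regions can give, so that this test could not reach 0.05.

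RTS0077263, which was already higher in peri-injured than in injured regions, was also higher than in healthy regions 1, 3 and 13, where it was at 110, 141 and 58.7. The log2 fold change was 1.51 ± 0.35 (SE), with an adjusted p of 0.0117 by edgeR that was above 0.05 without region 1 (0.0605) and without region 13 (0.0802). RTS0068988 was likewise called higher in peri-injured regions than in both other classes. Its log2 fold change against healthy regions was 1.48 ± 0.35 (SE), with an adjusted p of 0.0142 by edgeR.

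RTS0076369 moved the other way. Its normalized counts were 1414, 1308 and 1194 in healthy regions 1, 3 and 13, and 645, 281, 201 and 260 in peri-injured regions 6, 9, 10 and 12. All healthy segments were above all peri-injured ones, among which region 6 was highest. This was a log2 fold change of -1.91 ± 0.38 (SE), with an adjusted p of 0.00359 by edgeR over regions of 1 mouse per class and an exact permutation p of 0.0571.

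**Figure D4:**
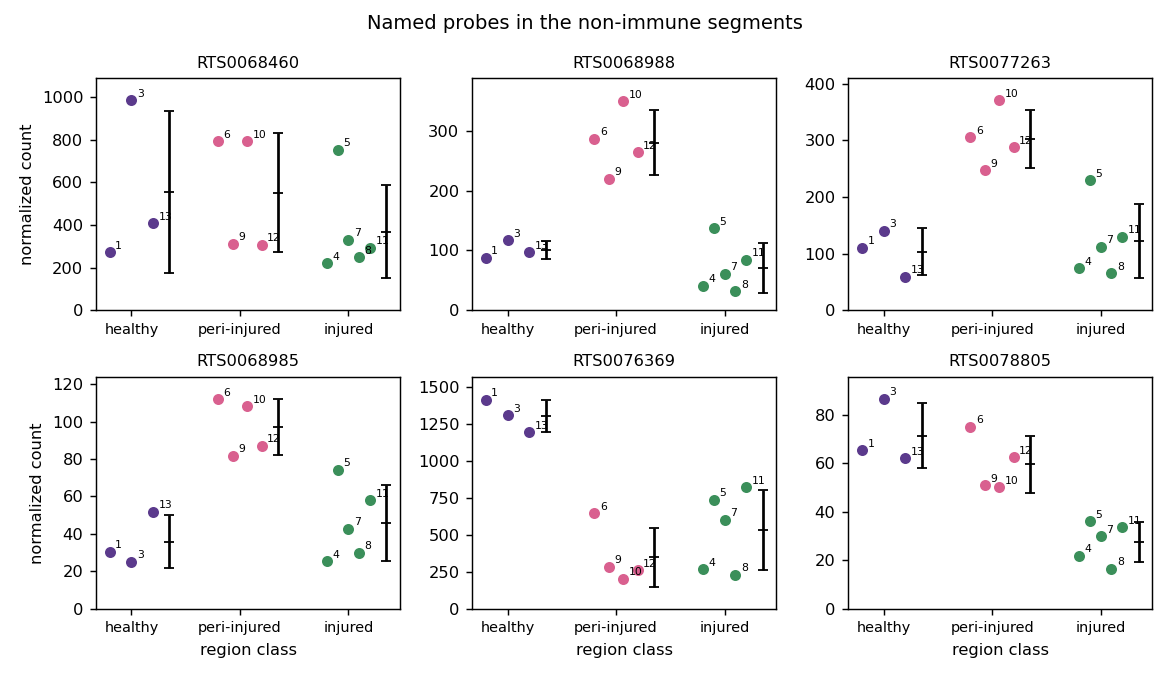
Normalized counts of 6 members in the 12 non-immune segments by region class, with region numbers beside the points and the mean ± SD of each class to the right of its points. RTS0068988, RTS0077263 and RTS0068985 are highest in all 4 peri-injured segments, RTS0076369 in all 3 healthy ones, and RTS0068460 is split within the peri-injured class.

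Between injured and healthy non-immune segments no member was called higher and 4 were called lower by edgeR (0.767% and 1.62% of the 6000 probes). At an unadjusted p of 0.05 or less, 1 member was higher and 13 were lower, and 1078 of the 6000 probes were in either direction. DESeq2 called 0 members higher and 6 lower, and limma called 1 higher and 7 lower. Over the 6000 probes, DESeq2 called 30 higher and 174 lower, and limma 210 and 135. The median log2 fold change was -0.49, compared with 0.15 for all probes tested. For 11 members the injured segments all lay below the healthy ones, and for none did they all lie above, while 4.28% of all probes tested lay apart downwards and 9.62% upwards. This count of 4 was the least stable of the 3. It was 0 without region 3, 1 without region 1, 4, 7, 8 or 13, and 8 without region 5.

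RTS0078805 had the largest decrease. It was at 65.4, 86.8 and 62.1 in healthy regions 1, 3 and 13, and at 21.9, 36.2, 30.0, 16.4 and 33.7 in injured regions 4, 5, 7, 8 and 11. The groups did not overlap, and the log2 fold change was -1.39 ± 0.25 (SE), with an adjusted p of 0.00310 by edgeR (0.0515 without region 3) and an exact permutation p of 0.0357, the smallest that 3 against 5 regions can give. In injured regions RTS0076369 was at 266, 737, 600, 228 and 822 in regions 4, 5, 7, 8 and 11. Regions 4, 7 and 8 were within the range of the peri-injured segments, and regions 5 and 11 lay above it and below all healthy segments. Its log2 fold change was -1.30 ± 0.35 (SE), with an adjusted p of 0.0495 by edgeR, 0.0096 to 0.0651 under the alternatives (the latter by DESeq2) and up to 0.160 with a region left out (region 1). The call was lost without region 1, 3, 4, 7, 8, 12 or 13 and held in the other 5 fits. The remaining calls were RTS0068682 (-1.20 ± 0.30 SE) and RTS0076158 (-1.12 ± 0.29 SE), named here to complete the count of 4, with adjusted p-values of 0.0295 and 0.0405 by edgeR. RTS0076369 was the only member called lower than healthy in both peri-injured and injured regions. The healthy difference between the segment types was the smallest of the 3 for RTS0078805 (0.778), RTS0068682 (0.705) and RTS0076158 (0.729). Their healthy non-immune level thus helped to choose them, and its part in these decreases was not tested. For RTS0076369 the smallest was the peri-injured difference (0.847).

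By the class means of the normalized counts, 19 of the 32 members were highest in peri-injured regions, 12 in healthy regions and 1 in injured regions. Over the 6000 probes the shares were 28.8%, 23.2% and 48.0%. Injured regions held the lowest mean of 20 members, and of 21.3% of the probes tested. The members fell into more than a single order. For 12 the mean was highest in peri-injured and lowest in injured regions, for 7 it was highest in peri-injured and lowest in healthy regions, for 8 highest in healthy and lowest in injured regions, and for 4 highest in healthy and lowest in peri-injured regions. The last 4 were RTS0076369, RTS0076370, RTS0076371 and RTS0070168, named after their values were seen. The leading members RTS0068460 and RTS0068462 were called in none of the 3 comparisons of non-immune segments.

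RTS0068460 varied within classes. In non-immune segments it was at 272, 986 and 407 in healthy regions 1, 3 and 13, at 794, 312, 794 and 308 in peri-injured regions 6, 9, 10 and 12, and at 220, 753, 330, 248 and 294 in injured regions 4, 5, 7, 8 and 11. Each class held segments under 320 and a segment over 750, and the classes overlapped. Its log2 fold change between peri-injured and injured regions was 0.59 ± 0.37 (SE), with an adjusted p of 0.229 by edgeR. The study places peri-injured regions 6 and 10 near the injury and 9 and 12 away from it. Of the members, 9 were higher in both of the former than in both of the latter and 9 were lower in both (17.5% and 21.6% of all probes tested).

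The injured non-immune segments differed among themselves along most members. Of the 32, 24 had their highest normalized count of the 5 injured segments in region 5, compared with 24.6% of the probes tested. The lowest was in region 8 for 17 and in region 4 for 13, which held the lowest value of 18.3% and 24.2% of the probes tested. The SD of the log2 normalized counts over the injured segments had a median of 0.46 over the members and 0.29 over the 2319 probes. In healthy (0.25 and 0.32) and peri-injured segments (0.31 and 0.25) the medians were closer. Regions 4 and 8 also had the highest estimated background of the injured non-immune segments (40.8% and 40.5%, compared with 37.8% to 38.5%), and the part of the background in this order was not tested.

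**Figure D5:**
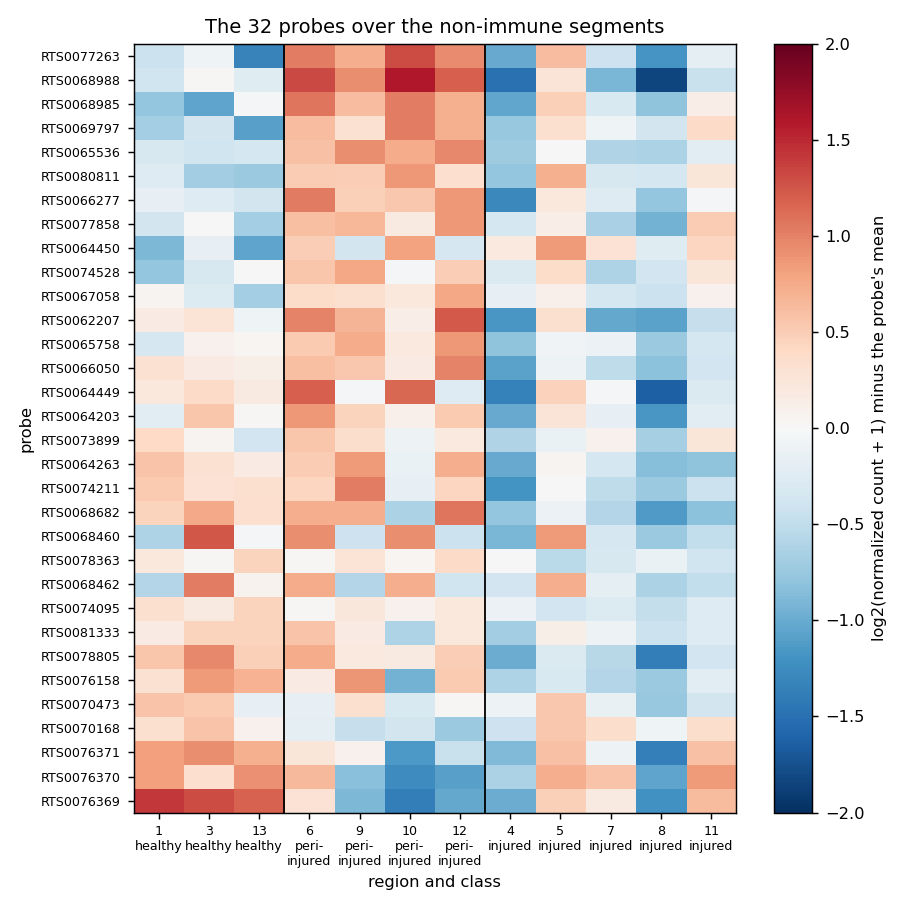
Normalized counts of the 32 members over the 12 non-immune segments, as log2(normalized count + 1) minus the mean of the probe (colour), with probes ordered by the fold change of peri-injured against healthy class means. Region 8 is the lowest of the 12 for 11 members and region 4 for 10, and the last rows, RTS0070168, RTS0076371, RTS0076370 and RTS0076369, are highest in a healthy region.

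The members also varied together. Over the 12 non-immune segments, the correlation of log2 normalized counts had a median of 0.46 over the 496 pairs of members and of 0.07 over pairs of the 2319 probes. With the class means taken off, the medians were 0.49 and 0.07. These are descriptions over 12 segments that share libraries and scaling, and pairs of abundant probes carry less counting error. In CD68 segments, where 26 members were tested, the medians were 0.14 and 0.05. Between the 2 segments of the same region, the median correlation over the 26 members was 0.49 (0.36 with class means taken off), compared with 0.27 and 0.11 for the 2210 probes tested in both. Regions with a high non-immune level of a member thus tended to have a high CD68 level too. The segments of a region lie next to each other and each was collected from the same place in turn. The part of neighbouring cells in the CD68 counts was not tested.

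In the CD68 segments, the members held a median of 63 counts over all regions, compared with 67 for the 2319 probes. Between peri-injured and injured regions, 2 of the 26 members tested were called higher by edgeR and 0 lower, compared with 3.07% and 1.35% of the 6000 probes. At an unadjusted p of 0.05 or less, 8 were higher and 0 lower, and 1126 of the 6000 probes were in either direction. DESeq2 called 2 members higher, limma called 0, and neither called any lower. Over the 6000 probes, DESeq2 called 164 higher and 40 lower, and limma 96 and 67. The median log2 fold change was 0.57, compared with -0.17 for all probes tested, and 0.26 compared with -0.20 in the fit of the 2319 probes, which held all 32 members. RTS0068988 was at 20.8, 12.1, 19.5 and 13.6 in peri-injured regions 6, 9, 10 and 12 and at 11.1, 4.23, 6.90, 7.05 and 6.04 in injured regions 4, 5, 7, 8 and 11. The classes did not overlap, but regions 9 and 4 were close. The log2 fold change was 1.32 ± 0.35 (SE), in the direction of the non-immune segments, with an adjusted p of 0.0221 by edgeR over regions of a single mouse, an exact permutation p of 0.0159, and an adjusted p above 0.05 without region 5, 6, 7 or 10 (0.113 without region 6). RTS0068460 was the other call, with overlapping groups (1.32 ± 0.35 SE, adjusted p = 0.0189 by edgeR). Without region 6 no member was called by edgeR, without region 4, 5, 7 or 12 it was 1, and without region 10 it was 3.

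Compared with healthy CD68 segments, 1 member was called higher and 1 lower in peri-injured regions (1.23% and 0.283% of the 6000 probes). RTS0068460 was at 35.6, 14.1, 21.5 and 72.5 in peri-injured regions 6, 9, 10 and 12, and at 3.62, 11.1 and 10.6 in healthy regions 1, 3 and 13. Peri-injured segments were higher in all cases, most of all region 12, where this probe was also lower in the non-immune segment. The values rest on few raw counts, 53, 7, 32 and 48 in these peri-injured regions and 3, 11 and 7 in the healthy ones. The log2 fold change was 2.06 ± 0.46 (SE), with an adjusted p of 0.00782 by edgeR over regions of 1 mouse per class, but of 0.129 without region 1 and 0.0623 without region 12. In the non-immune segments of the same regions its log2 fold change was -0.01 ± 0.42 (SE), with an adjusted p of 0.998 by edgeR. The difference between these 2 fold changes was not tested. In all, no member was called by edgeR without region 1, and 1 without region 12.

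RTS0076369 fell in the CD68 segments as it did in the non-immune ones. It was at 153, 86.6 and 121 in healthy regions 1, 3 and 13, at 75.1, 28.2, 10.1 and 36.2 in peri-injured regions 6, 9, 10 and 12, and at 25.2, 30.2, 26.7, 25.2 and 20.4 in injured regions 4, 5, 7, 8 and 11. All healthy segments were above all others. Its log2 fold change was -1.65 ± 0.37 (SE) in peri-injured (adjusted p = 0.00805) and -2.23 ± 0.35 (SE) in injured regions (adjusted p = 9.82e-05), both by edgeR's quasi-likelihood test over regions of 1 mouse per class. The former had an adjusted p of 0.121 without region 1, and the latter was called with each of the 12 regions left out. Of the 26 members, 2 were called lower and 0 higher in injured than in healthy CD68 segments (0.433% and 0.283% of the 6000 probes). At an unadjusted p of 0.05 or less, 7 were lower and 2 higher, and 596 of the 6000 probes were in either direction. DESeq2 called 4 members lower and limma 1, and neither called any higher. Over the 6000 probes, DESeq2 called 24 lower and 12 higher, and limma 12 and 26. RTS0076370 was the other call, named here to complete the count of 2, with a log2 fold change of -1.91 ± 0.38 (SE) and overlapping groups (adjusted p = 0.00275 by edgeR). The count of calls was 1 without region 1 and without region 13.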

How the data were processed

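The authors deposited raw counts of probe barcodes, made per the file headers by version 2.3.4 of the GeoMx NGS Pipeline from reads of the Mouse Whole Transcriptome Atlas, with duplicates removed. A probe missing from a file was read as 0. The genes of the probes, the negative controls and the reaction without tissue were not analysed here. The 6000 probes with most counts by mean share in a compartment were fitted with edgeR 4.0.16 (R 4.3.3), using upper-quartile factors and 1 term per region class over 12 segments, and adjusted after Benjamini and Hochberg. The compartments were normalized separately, so that normalized counts are compared within a compartment only. Depth was 21955 to 671249 counts per segment, and counting error is smallest in the non-immune segments. DESeq2 1.42.0 and limma 3.58.1 (on log2 of the normalized count plus 1) were alternatives, and so were TMM factors, other filters on low counts, thinning and leaving out each region. Exact permutation tests over regions were two-sided. Named probes had to lie apart between the classes, so that each exact p given is the smallest possible by this choice and is not further support. Fits were also run on simulated counts, drawn independently for each probe and segment. Those counts lacked the background differences and the joint variation of the regions here, so that they cannot vouch for the calls.

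Named probes were the 2 members with the highest rank and, in each comparison, the 2 highest and 2 lowest fold changes among called members with no overlap of their normalized counts. The members, lists and tests were chosen with earlier results of these data known. Background was estimated per segment as the mean count of the lowest 2018 probes, selected on segments of the opposite type, multiplied up to all 20175 probes. Regions of a class are replicates of place, not of animals.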

Additional observations from a re-analysis of the deposited data

Results flagged for a closer look

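Of 34 groups of 4 or 5 segments that were checked for a sample far from the others (shares, median differences and named probes), 3 held such a sample, where chance gives about 1 in 20 groups. The members held 2.22% of the counts in the non-immune segment of peri-injured region 6, compared with 1.32% to 1.40% in the other 3 peri-injured regions. RTS0068460 was at a normalized count of 753 in the non-immune segment of injured region 5, and at 220 to 330 in the other 4 injured regions. RTS0068462 was at 305 in the same segment and at 119 to 161 in the others. Both probes vary together over the 12 non-immune segments (r = 0.97 across regions, as a description), so that these are not independent.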

How the results depend on the processing

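Regions of 1 lung per class, shallow CD68 segments and probes without gene names limit these results. Median differences between the compartments kept their sign and moved by less than the SD between regions under all 18 alternatives. The members were chosen on these differences in the same counts, so that the kept sign was largely set in advance and is not support. With regions left out they were 0.90 to 1.07 (healthy), 1.19 to 1.36 (peri-injured) and 0.82 to 1.03 (injured). With a pseudocount of 50, 13 of the 32 members were chosen again, since a higher pseudocount shrinks differences, and with a region left out 21 to 32 (21 without region 3).

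In the non-immune segments, thinning to the shallowest segment gave 12 calls of members between peri-injured and injured regions (19 in the report) and 4 between peri-injured and healthy regions (8). Between injured and healthy regions (4), TMM gave 7 and limma 8. Leaving out a region gave 15 to 21, 2 to 8 and 0 to 8 calls. In the CD68 segments (2 calls each), limma gave 0, 10000 probes 5, no filter 9 and thinning 1 between peri-injured and injured regions. The probes with 300 or more non-immune counts gave 4 between peri-injured and healthy regions (1 higher and 3 lower, compared with 1 and 1), and the members' median log2 fold change there was -0.03 (0.35 with the 6000 probes). TMM, DESeq2, 10000 probes, no filter and the 300-count probes gave 4 each and limma 1 between injured and healthy regions. Leaving out a region gave 0 to 3, 0 to 3 and 1 to 3. Thinning leaves fewer counts, and the other causes were not tested. Over all 6000 probes, limma split the calls between peri-injured and injured non-immune regions into 417 higher and 394 lower.

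Named fold changes kept their direction in all 77 fits under alternatives, 73 of them called, and in all 132 with a region left out, 113 of them called. RTS0068985 was lost on thinning (adjusted p = 0.0531, with 0.0018 to 0.0531 over the alternatives). RTS0068988 was lost in CD68 segments by limma (0.0582) and on thinning (0.334, with 0.00016 to 0.334 over the alternatives). With background taken off, a choice made after seeing the data, the members' median log2 difference in non-immune segments was 0.13 (0.25 before) between peri-injured and healthy regions and -0.77 (-0.64 before) between injured and healthy regions.

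No paired analysis was possible because the classes compared share no region number, and the contrast between the segments of a region chose the members and was not tested.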

Other observations

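Members with neighbouring identifiers often varied together, although it is not known from the sources at hand whether such probes belong to the same or to related genes. Over the 12 non-immune segments, the correlation of log2 normalized counts was 0.97 between RTS0068460 and RTS0068462, 0.84 between RTS0068985 and RTS0068988, and 0.84 to 0.92 among RTS0076369, RTS0076370 and RTS0076371. It was 0.27 between RTS0064449 and RTS0064450. These pairs were picked after their values were seen, and similar values occurred between distant identifiers, such as 0.96 between RTS0066050 and RTS0062207.

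RTS0076371, the remaining probe of the group of 3, was not called in any comparison. Its log2 fold change in non-immune segments was -1.06 ± 0.37 (SE) in peri-injured and -0.87 ± 0.35 (SE) in injured compared with healthy regions (adjusted p = 0.113 and 0.188 by edgeR), and its healthy segments lay above all others.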
